A study of Mus musculus with 4 samples.

Results

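IGF2BP2 is an RNA-binding protein, and 8 mouse genes whose mRNAs have been described as targets of the IGF2BP family and act in growth were followed through its peak lists in macrophages: Igf1, Igf1r, Igf2r, Cd44, Ccnd1, Myc, Hmga1 and Hmga2. Their peaks were those whose gene identifier was that of a listed gene and whose region label was not antisense. This gave 44 of 15511 peaks in replicate 1 and 49 of 22570 peaks in replicate 2. The samples were BMDMs, macrophages grown in culture from mouse bone marrow, and RNA immunoprecipitated with IGF2BP2 was sequenced in 2 libraries. The labels name an antibody to IGF2BP2 in the sample records and a monoclonal Flag antibody in the protocol, and they give no strain, age, genotype or treatment for the cells. Both immunoprecipitation libraries belong to 1 group, the 2 input libraries are not analysed here, and the labels do not say if each replicate is its own culture or animal. A peak height can follow binding or the amount of the mRNA in the cells, which cannot be told apart from these lists, nor can fewer cells expressing a gene and less RNA per cell.

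IGF2BP proteins are cytoplasmic RNA-binding proteins that bind mRNAs through KH and RRM domains and are known for keeping bound mRNAs stable and translated. They are also described as readers of N6-methyladenosine (m6A), a methyl mark on adenosine that is placed mostly in short sequences with the core GGAC. The IGF2 leader, the end of the MYC coding sequence in human cells, and the mRNAs of CD44 and HMGA proteins are among the sites for which the family is best known. In macrophages, IGF1 is a secreted growth factor and CD44 a receptor for hyaluronan in the extracellular matrix.

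All 8 genes had a peak in replicate 1 and 7 of them in replicate 2, where Hmga2 had none. Over all 21951 protein-coding genes, 22.0% had such a peak in replicate 1, 26.7% in replicate 2 and 17.0% in both. At the level of positions, 5 of the 8 genes (Igf1, Igf2r, Cd44, Myc and Hmga1) had overlapping peaks, against 9.07% of all protein-coding genes. Overlap meant at least 1 pair of peaks, 1 from each library, that shared 1 base or more on the same strand. Among genes with a peak in both lists, those with overlapping peaks were 5 of these 7, against 1992 of 3739 protein-coding genes. Of the 8 genes' peaks, 25 in replicate 1 (56.8%) were overlapped by a peak of replicate 2, against 34.8% of all peaks of that list. In replicate 2 the numbers were 23 peaks (46.9%), against 23.6% of all peaks. The genes were chosen with earlier results of these data known, and a longer or stronger peak overlaps more easily. The median length of their peaks was 271.5 bases in replicate 1, against 194 for the whole list, and 351 bases in replicate 2, against 214. Their median tag count, the measure of strength explained below, was 14 and 21, against 7 and 8 for the whole lists. Of the 25 overlapped peaks in replicate 1, Igf1 had 10, Igf2r 8 and Cd44 5. Of the 23 in replicate 2, these genes had 8, 8 and 5.

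The strength of a peak was read from its tag count, the number of sequenced tags that the authors assigned to it. The sums are not divided by length, and densities per kilobase are given further on. The 8 genes held 702 tags in replicate 1 and 1400 in replicate 2, and 3 of them carried most: Igf1, Igf2r and Cd44 together had 36 of the 44 peaks and 87.2% of the tags in replicate 1, and 42 of the 49 peaks and 91.9% of the tags in replicate 2. Igf1 had 258 and 547 tags (95% exact Poisson intervals 227.5 to 291.5 and 502.1 to 594.8, which cover counting error only). Cd44 had 208 and 542 tags (intervals 180.7 to 238.3 and 497.3 to 589.6). These 2 genes ranked 91 and 117 from the top among the 4962 genes with a sense peak in replicate 1, and 70 and 71 among 6070 in replicate 2. Igf2r had 146 and 197 tags (intervals 123.3 to 171.7 and 170.4 to 226.5), more than 96.5% and 95.5% of the genes with a peak. The middle of the range was held by Ccnd1, Myc and Hmga1, with 21 to 34 tags in replicate 1 and 22 to 47 in replicate 2, above 70.1% to 80.3% of genes with a peak in replicate 1 and 61.9% to 79.3% in replicate 2. Igf1r, with 4 and 6 tags, and Hmga2, with 8 tags and no peak, were at the low end.

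**Figure D1:**
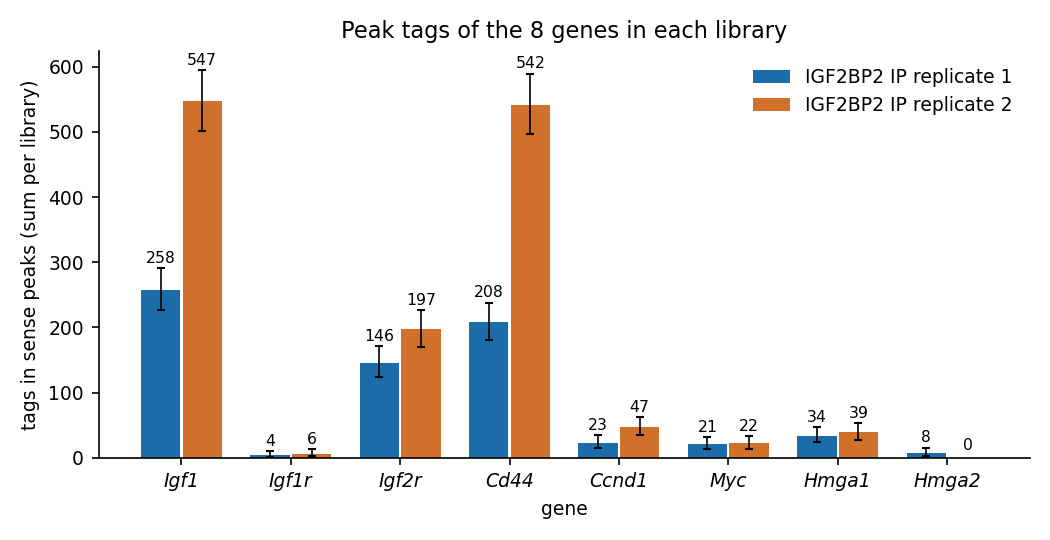
Tags summed over the sense peaks of each gene (vertical axis, count per library) for the 8 genes (horizontal axis), 1 bar for each IGF2BP2 immunoprecipitation library, with exact 95% Poisson intervals as error bars where there was a peak. Igf1, Igf2r and Cd44 stand between 146 and 547 tags, and the other 5 genes at 47 or fewer.

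The lists differed in their total of peak tags, so a gene's tags were also set beside those of the whole list. They give no library size, so sequencing depth itself is not known. All peaks together held 189393 tags in replicate 1 and 324456 in replicate 2, and the ratio of replicate 2 to replicate 1 was 1.71. For Cd44 the same ratio was 2.61 (exact 95% interval 2.22 to 3.07) and for Igf1 2.12 (1.82 to 2.47), both above the ratio of the lists. The ratio of Igf2r, 1.35 (1.08 to 1.68), was below it. Ratios of single genes spread widely: among 3739 protein-coding genes with peaks in both lists, the median was 1.62 and the quartiles 1.0 and 2.55. Igf1 and Igf2r lay within those quartiles, and Cd44 just above the upper one. The counting intervals of the tags of Igf1 and Cd44 overlapped in both libraries. Those of Ccnd1, Myc and Hmga1 overlapped one another in replicate 1. In replicate 2 that of Hmga1 overlapped both of the others, while those of Ccnd1 and Myc did not overlap. All of these intervals, also those of the ratios, treat tags as independent counts. They would be too narrow if the mates of a pair were counted separately, which is not known.

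**Figure D2:**
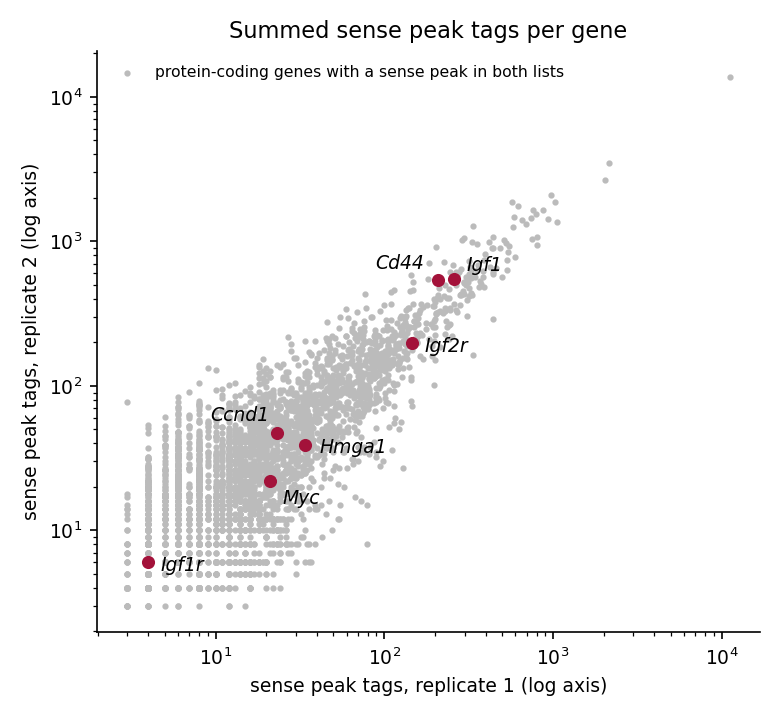
Summed sense peak tags per protein-coding gene in replicate 1 (horizontal log axis) against replicate 2 (vertical log axis), with 1 grey point for each of the 3739 genes with a peak in both lists and the 7 named genes in red. Cd44, Igf1 and Igf2r lie in the upper part of the cloud, Ccnd1, Hmga1 and Myc in its middle and Igf1r at its lower edge; Hmga2, without a peak in replicate 2, cannot be shown.

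The sequences that follow are coding stretches covered by a peak in both libraries, chosen from Igf1, Igf2r, Cd44 and Hmga1. The peaks over Igf1 exon 3 and Cd44 exon 1 lay mainly in introns, so their tags need not come from spliced mRNA. Myc also had a shared peak over the start of its coding sequence, which is neither shown nor counted here. They were read from the GENCODE M21 transcripts (GRCm38) in the sense of the mRNA, and capitals mark GGAC. All of these stretches run to an exon edge on at least 1 side or begin at a start codon.
Igf1 exon 3, chr10:87913619-87913800, + strand: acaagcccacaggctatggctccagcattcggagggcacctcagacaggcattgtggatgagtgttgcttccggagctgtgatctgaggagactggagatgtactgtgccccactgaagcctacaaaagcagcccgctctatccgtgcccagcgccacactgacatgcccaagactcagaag
Igf1 exon 4, chr10:87930675-87930734, + strand: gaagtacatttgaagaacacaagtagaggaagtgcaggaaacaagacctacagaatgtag
Igf2r exon 25, chr17:12704633-12704745, - strand: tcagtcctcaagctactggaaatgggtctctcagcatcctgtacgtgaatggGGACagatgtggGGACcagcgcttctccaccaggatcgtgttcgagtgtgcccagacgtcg
Igf2r exon 26, chr17:12704272-12704359, - strand: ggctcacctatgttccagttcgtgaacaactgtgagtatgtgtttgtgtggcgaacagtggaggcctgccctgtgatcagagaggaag
Cd44 exon 1, chr2:102901268-102901346, - strand: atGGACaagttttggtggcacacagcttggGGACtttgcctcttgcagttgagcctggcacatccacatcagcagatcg
Cd44 exon 2, chr2:102865281-102865446, - strand: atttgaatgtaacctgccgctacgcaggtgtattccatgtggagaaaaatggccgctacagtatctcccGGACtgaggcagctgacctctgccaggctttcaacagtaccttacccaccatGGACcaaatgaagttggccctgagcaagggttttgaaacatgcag
Hmga1 exon 2, chr17:27559569-27559670, + strand: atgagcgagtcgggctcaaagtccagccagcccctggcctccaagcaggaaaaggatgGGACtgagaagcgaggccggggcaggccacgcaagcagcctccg
The stretches of Cd44 exon 1, Cd44 exon 2 and Igf2r exon 25 each held 2 GGAC and that of Hmga1 held 1, while those of Igf1 and Igf2r exon 26 held none. Of all 12 such stretches in these 4 genes 5 held GGAC, and of the 7 in Igf2r 2 did, exon 25 and the longer stretch of exon 48, which had 4. Among windows of equal length drawn along all representative coding sequences, the share with GGAC was 54.1% at the length of Cd44 exon 2, 41.2% at that of Igf2r exon 25, 38.1% at that of Hmga1 and 31.0% at that of Cd44 exon 1. For the stretches without GGAC it ran between 24.4% and 57.2%.

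Igf1 encodes the ligand of the group, a hormone-like growth factor that macrophages secrete. The gene spans chr10:87858265-87937042 on the + strand, and its representative transcript, Igf1-202, has 4 exons and 7052 bases, of which 6308 are 3' UTR. It had 14 peaks in replicate 1, of 10 to 41 tags, and 17 in replicate 2, of 14 to 119 tags. Peaks mainly in introns numbered 9 of 14 and 13 of 17, with 156 of 258 and 450 of 547 tags. Those regions are the authors', over all transcripts of the gene. With peaks placed by their midpoint on Igf1-202, the density was 10.1 and 14.5 tags per kb of mRNA, against 2.64 and 6.27 tags per kb of intron. Both midpoint values were higher in replicate 2, whose list held more tags in all. By the authors' regions the value per kb of mRNA was lower in replicate 2, at 14.46 and 13.75 tags. The value per kb of intron was higher there, at 2.175 and 6.274 tags.

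The intronic peaks of Igf1 were crowded towards the 5' end of the gene. The longest, chr10:87861239-87863765, covered 2527 bases with 119 tags in replicate 2, and it overlapped 3 peaks of replicate 1, of 31, 20 and 22 tags. The first of those 3 had 208 of its 599 bases inside that stretch, and it lay mainly (0.87 of its length) in a 5' UTR exon of other Igf1 transcripts by the authors' region columns, which is not an exon of Igf1-202. In intron 2, replicate 1 had 5 peaks with 59 tags and replicate 2 had 9 peaks with 253 tags. No other gene of the 8 had as many intronic peaks in either library.

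The coding exons 3 and 4 of Igf1 were covered in both libraries. At exon 3, which encodes part of the mature hormone, the peak had 41 tags in replicate 1 (chr10:87913619-87914024) and 37 in replicate 2 (chr10:87913425-87914036), with summits 4 bases apart. Both peaks ran beyond the end of exon 3 into intron 3, and that of replicate 2 also began in intron 2; introns held 0.55 and 0.7 of their length. At exon 4 the peaks, of 19 and 23 tags, both began on the first base of the exon and crossed the stop codon, with summits 1 base apart. Further into the 3' UTR the libraries did not coincide: replicate 1 had peaks of 15 and 22 tags at chr10:87931673-87931992 and chr10:87934121-87934570, and replicate 2 had peaks of 14 and 28 tags at chr10:87930919-87931237 and chr10:87932707-87933276. Exon 2 was touched by a peak of 15 tags in replicate 1, which overlapped a peak of 39 tags that began in intron 2 in replicate 2, and an alternative exon downstream of exon 3 had a peak of 32 tags in replicate 2 alone (chr10:87915238-87915684). Of all Igf1 peaks, 10 of 14 and 8 of 17 overlapped a peak of the other library. The genes nearest to Igf1 in summed tags over the 3739 genes compared were Fnip2 (271 and 572 tags) and Iqgap1 (271 and 590 tags), at distances of 0.10 and 0.13 on the log2 scale over the 2 lists.

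Igf1r encodes the tyrosine kinase receptor through which IGF1 signals, and it was among the faintest genes of the lists. Replicate 1 had 1 peak of 4 tags in intron 2 (chr7:68025988-68026280), and replicate 2 had 1 peak of 6 tags in exon 10 (chr7:68189979-68190150). The peaks did not overlap and lay in different parts of a gene of 280842 bases. Fewer tags were found for 3.77% of the genes with a peak in replicate 1 and for 18.96% in replicate 2. The lowest tag count of any peak in either list was 3.

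Igf2r encodes the receptor that carries mannose 6-phosphate tagged enzymes to lysosomes and takes up IGF2 for degradation. Its peaks were spread over the coding sequence and most lay mainly in exons, unlike those of Igf1 and Cd44. Some reached into introns, with up to 0.38 of their length in replicate 1 and 0.73 in replicate 2. The gene spans chr17:12682406-12769664 on the - strand, and Igf2r-201 has 48 exons, 8887 bases and a coding sequence of 7452. Peaks mainly in coding sequence made up 13 of 14 in replicate 1 and 10 of 13 in replicate 2, and peaks mainly in introns 0 and 2. By the authors' regions, the tag density was 16.4 and 19.2 per kb of mRNA, against 0 and 0.33 per kb of intron. Igf2r had fewer tags in all than Igf1, but with peaks of both genes placed by their midpoint its value per kb of mRNA was the higher one in both libraries (16.4 and 21.2, against 10.1 and 14.5 for Igf1), a difference that was not tested.

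Single peaks of Igf2r were modest, at 6 to 19 tags in replicate 1 and 9 to 37 in replicate 2. They touched 12 exons in each library, and 7 of these exons (14, 17, 18, 25, 26, 45 and 48) had a peak in both. The strongest peaks in both libraries lay in the last exon, exon 48. One lay near the end of the coding sequence, at chr17:12683727-12684118 with 19 tags in replicate 1, and reached to 12684126 with 28 tags in replicate 2. In both libraries it stopped at base 7435 of the 7452 coding bases, short of the stop codon. The other lay in the 3' UTR, with 19 tags at chr17:12682559-12682846 in replicate 1 and 37 tags at chr17:12682497-12683228 in replicate 2. The peak on exon 26 had 12 and 10 tags and identical ends in both libraries, those of the exon itself. Its neighbour on exon 25 had 8 and 16 tags. The other shared coding exons gave 10 and 10 tags (exon 14), 6 and 9 (exon 17), 8 and 10 (exon 18), and 10 and 11 (exon 45). In all, 8 of 14 and 8 of 13 Igf2r peaks overlapped a peak of the other library.

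Peak ends of Igf2r often coincided with exon edges. Of its coding peaks, 10 of 13 in replicate 1 and 10 of 10 in replicate 2 ended exactly on at least 1 edge of an exon, and 4 and 7 on both. Over all coding peaks the share with at least 1 such end was 79.6% and 79.7%. Pairs of Igf2r peaks that met at a junction numbered 4 in replicate 1 and 3 in replicate 2, so its peak count is higher than its number of separate stretches of mRNA. The long non-coding RNA Airn starts inside Igf2r on the opposite strand and is known as the silencer of the paternal Igf2r allele. Airn had 2 peaks with 19 tags in replicate 1 and 8 peaks with 102 tags in replicate 2, of which 1 peak (8 tags) and 6 peaks (82 tags) fell inside the span of Igf2r. Whether the library kit kept the strand is not given in the sources used here, so reads of the 2 genes in that overlap cannot be told apart with certainty. The genes nearest to Igf2r in summed tags were Pitpna (150 and 190 tags) and Rbm47 (147 and 208 tags), at log2 distances of 0.07 and 0.08.

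**Figure D3:**
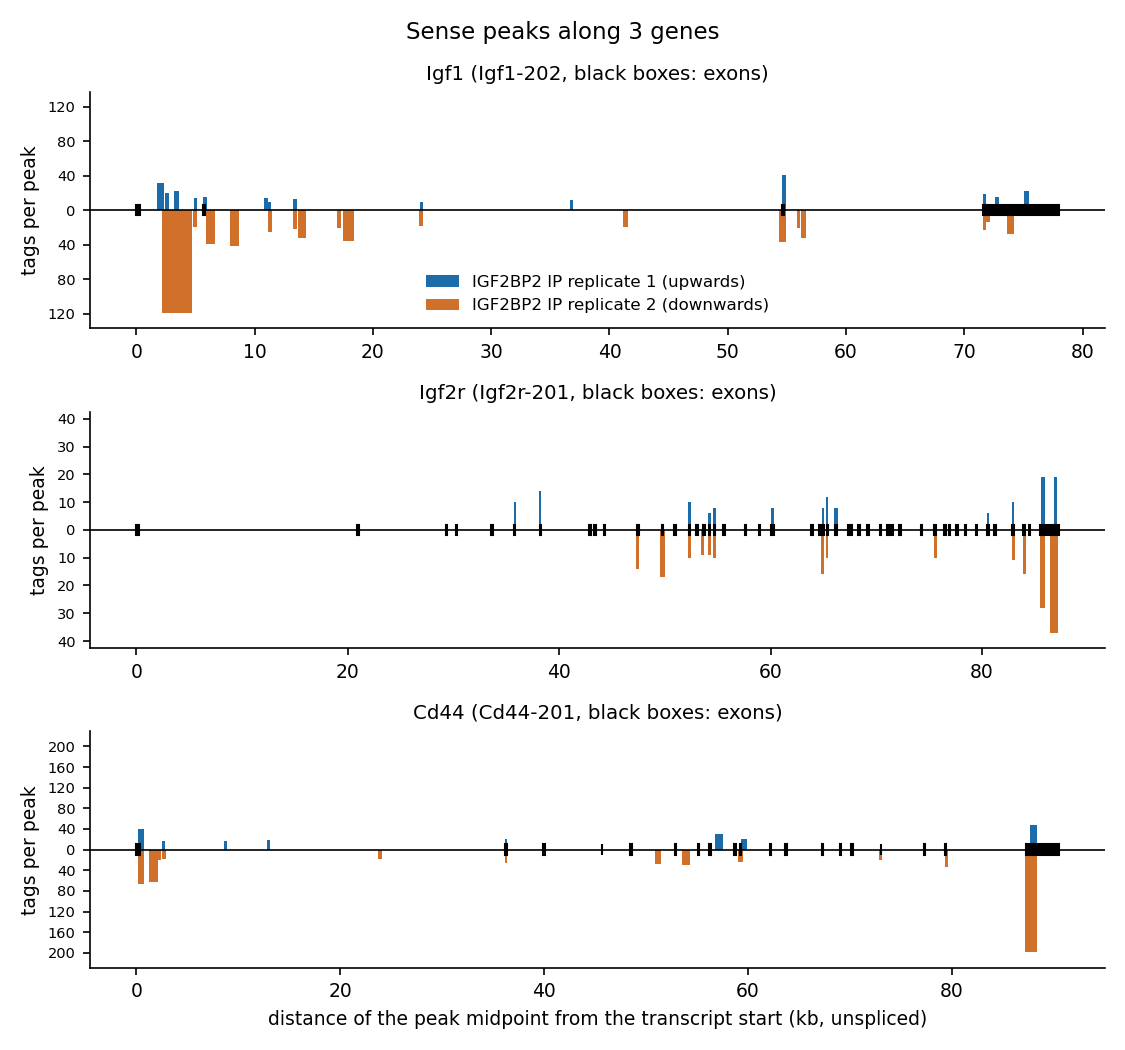
Sense peaks along Igf1, Igf2r and Cd44, drawn as bars at the distance of the peak midpoint from the transcript start (horizontal axis, kb of unspliced gene, bars as wide as the peak or at least 0.25 kb) with height equal to tags (vertical axis, replicate 1 upwards, replicate 2 downwards) and exons as black boxes. Igf1 has many intronic peaks near its start, Igf2r has bars on exons along the gene, and Cd44 has its highest bars over its first and last exons, with 199 tags at the last exon in replicate 2.

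Cd44 encodes a membrane glycoprotein that binds hyaluronan and osteopontin. The gene spans chr2:102811141-102901665 on the - strand, and Cd44-201 has 19 exons and 5614 bases, of which 2992 are 3' UTR. It had 8 peaks of 16 to 47 tags in replicate 1 and 12 peaks of 18 to 199 tags in replicate 2. By the authors' regions, peaks mainly in exons were few, 2 in each library. They gave 11.9 and 39.9 tags per kb of mRNA, against 1.66 and 3.74 tags per kb of intron. Peaks mainly in introns held 141 of 208 and 318 of 542 tags.

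The strongest peak of the 8 genes lay at the last exon of Cd44. In replicate 2 it covered chr2:102813270-102814464 with 199 tags, more than 99.8% of the peaks in that list, and in replicate 1 it covered chr2:102813229-102813928 with 47 tags. The peaks overlapped by 659 bases, but their summits were 687 bases apart: in replicate 1 the summit was 672 bases past the stop codon, in the 3' UTR, and in replicate 2 it was 15 bases before the stop codon. A peak over the first exon and the start of intron 1 had 39 tags at chr2:102900889-102901426 in replicate 1 and 66 tags at chr2:102900900-102901441 in replicate 2. Exon 2 was covered from end to end in both libraries, with 20 and 25 tags, and its peaks had identical ends. These 3 places and a peak within intron 1 (16 and 18 tags) were found in both libraries.

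The alternative exons of Cd44 were touched at 1 place in both libraries. The peaks there, of 21 and 23 tags, overlapped by 127 bases and reached exon 10. That exon is contained in 3 of the 8 annotated protein-coding transcripts. Both peaks lay mainly in intron, and coding sequence held 0.02 of the length in replicate 1 and 0.24 in replicate 2. The summit lay in intron 10 in replicate 1 and in exon 10 in replicate 2. Other Cd44 peaks were seen in replicate 2 alone, including 62 tags in intron 1 (chr2:102899526-102900420), 33 tags at exon 18 (chr2:102821998-102822286) and 21 tags at exon 16 (chr2:102828454-102828735). In all, 5 of 8 and 5 of 12 Cd44 peaks overlapped a peak of the other library. The genes nearest to Cd44 in summed tags were Coro7 (230 and 502 tags) and B4galt5 (183 and 551 tags), at log2 distances of 0.18 and 0.19.

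Ccnd1 encodes cyclin D1, the partner of CDK4 and CDK6 that moves cells through the G1 phase. It had 23 tags in 1 peak in replicate 1 and 47 tags in 3 peaks in replicate 2. Both libraries had a peak in the 3' UTR of exon 5, of 23 tags at chr7:144931876-144932493 and of 22 tags at chr7:144931402-144931752, and these did not overlap. Replicate 2 also had 15 tags on exon 2 (chr7:144937930-144938102) and 10 tags on exon 1 (chr7:144939496-144939607), 2 coding peaks that met at the splice junction. No peak of Ccnd1 lay mainly in an intron, and its density was 6.15 and 12.6 tags per kb of mRNA.

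Myc encodes a transcription factor that drives growth and division. It had 21 tags in 2 peaks in replicate 1 and 22 tags in 1 peak in replicate 2, all mainly in exons, or 8.98 and 9.41 tags per kb of mRNA. The peak found in both libraries lay over the start codon in exon 2, with 7 tags at chr15:61987445-61987594 and 22 tags at chr15:61987384-61987849, and its summits were 3 bases apart. Replicate 1 had a further peak of 14 tags in exon 1 (chr15:61985564-61986010). No peak was listed in exon 3, the last exon, which contains the end of the coding sequence. The lists give no tag counts outside peaks, so the amount of Myc RNA recovered there is not known.

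Hmga1 and Hmga2 encode small chromatin proteins that bind AT-rich DNA. Hmga1 had 34 tags in 3 peaks in replicate 1 and 39 tags in 2 peaks in replicate 2. Its shared peak covered the start codon in exon 2, with 13 tags at chr17:27559533-27559670 and 24 tags at chr17:27559467-27559671. Replicate 1 also had 11 tags in 5' UTR exon 1 and 10 tags in intron 1, and replicate 2 had 15 tags in exon 3 (chr17:27560928-27561011). Per kilobase of mRNA Hmga1 had 12.0 and 19.5 tags. A related gene, Hmga1b, had 0 peaks in both lists, and any reads it shares with Hmga1 cannot be told apart here. Hmga2 had 8 tags in 1 peak in intron 3 in replicate 1 (chr10:120436669-120436926) and no peak in replicate 2, and no exon of it was touched.

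Taking the 8 genes together, 17 of 44 peaks in replicate 1 lay mainly in coding sequence (38.6%, exact 95% binomial interval 24.4% to 54.5%), against 46.8% of all sense peaks. In replicate 2 they were 17 of 49 (34.7%, interval 21.7% to 49.6%), against 44.3%. Introns held 40.9% and 51.0% of the 8 genes' peaks, against 37.7% and 40.8% of all sense peaks. The 3' UTR held 6 and 7 of their peaks and the 5' UTR 3 and 0. The intervals of the coding shares reached the shares of all sense peaks. They treat peaks as independent, but peaks of 1 gene share a transcript, so no conclusion is drawn from this. The mix hid the contrast between Igf2r, with 13 and 10 coding peaks, and Igf1 and Cd44, with 2 in replicate 1 and 1 in replicate 2 between them.

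**Figure D4:**
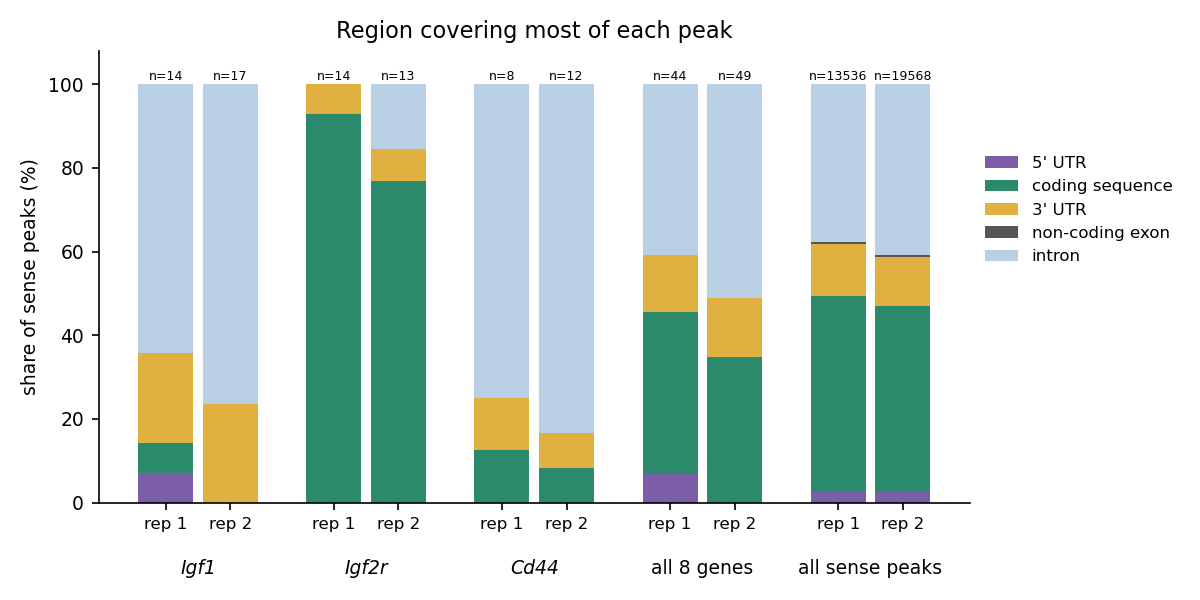
Share of sense peaks (vertical axis, percent) by the region that covers most of the peak in the authors' columns, for Igf1, Igf2r, Cd44, all 8 genes and all sense peaks, 1 stacked bar for each library with the number of peaks above. Igf2r is mostly coding sequence (13 of 14 and 10 of 13 peaks) and Igf1 and Cd44 are mostly intron, while all 8 genes together have 38.6% and 34.7% coding peaks.

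Sequence could be read for the peaks that lay within 1 exon of the representative transcript, which were 19 of 44 in replicate 1 and 19 of 49 in replicate 2. On the transcript strand, GGAC was present in 8 of these 19 (42.1%, exact interval 20.2% to 66.5%) and 9 of 19 (47.4%, interval 24.4% to 71.1%), against 52.0% and 51.6% of all such sense peaks. Per kilobase of sequence, the 8 genes' peaks had 2.96 and 3.41 GGAC, against 4.83 and 4.68 for all. The longer form TGGAC was present in 1 and 4 of the 19 peaks, against 22.8% and 23.3% of all. The broad motif DRACH (A, G or T, then A or G, then AC, then A, C or T), which overlaps GGAC wherever the next base is not G, was in 18 and 19 of the 19 peaks, against 90.8% and 91.1%. The intervals for GGAC included the shares of all peaks in both libraries. The peaks of 1 gene share a transcript and are not independent.

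The 25 pairs of overlapping peaks in the 8 genes had a median summit distance of 36 bases, against 31 bases for all 5566 overlapping pairs of the lists. In 16 of the 25 the summits were within 50 bases, and in 18 the overlap covered at least 50% of both peaks. Identical ends were found in 2 of the 25 (8.0%), which were Cd44 exon 2 and Igf2r exon 26, against 10.5% of all pairs.

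Other genes of the same pathways were read from lists. Of 10 IGF ligand, receptor and adaptor genes, 4 had a peak in both libraries (Grb2 with 39 and 135 tags, Shc1 with 14 and 26, the insulin receptor gene Insr with 9 and 16, and Sos2 with 4 and 6), while Igf2, Irs1 and Irs2 had none. Of 8 genes for IGF binding proteins, Igfbp4 had peaks in both (30 and 42 tags) and the other 7 had none. Of the 3 IGF2BP genes none had a peak in both libraries, and Igf2bp2 itself had 0 and 23 tags. Of 7 genes of mannose 6-phosphate sorting, the pathway of Igf2r, 4 had a peak in both, among them Gga1 (27 and 22 tags) and M6pr (31 and 17). Of 16 genes for CD44 ligands, partners and proteases, 7 had a peak in both, led by the cytoskeletal linker moesin (Msn, 320 and 599 tags) and osteopontin (Spp1, 377 and 507).

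Around the cell cycle and transcription genes the counts were 5 of 16 for G1 cyclins, kinases and inhibitors (Cdk6 with 269 and 324 tags, Cdkn1a with 22 and 42), 4 of 12 for the MYC network (Mlxip with 22 and 90, Max with 15 and 10), and 0 of 7 for other high mobility group genes. Of 25 other mRNAs described as IGF2BP targets, a list that also holds Cdk6, 6 had a peak in both, among them Actb (330 and 423 tags) and Fn1 (21 and 70). These counts stand beside the 17.0% of protein-coding genes that had peaks in both lists, and no test was made on them.

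Macrophage markers were present in the immunoprecipitated RNA. Of 9 macrophage genes 5 had a peak in both libraries, against 17.0% of all protein-coding genes. The list had 1543 and 2538 summed tags, most of them from Csf1r (932 and 1421) and Adgre1 (421 and 661). Fcgr1 had a peak in replicate 1 alone (4 tags) and Cd68 in replicate 2 alone (88 tags), while Cd14 and Lyz2 had no peak. Neutrophil, T cell, B cell, dendritic cell, fibroblast and erythroid lists had no gene with a peak in both libraries, and their summed tags were between 0 and 10 in each library. The lists give no tags outside peaks, so a gene without a peak can still be present as RNA. The part of other cells in the values above was therefore not tested.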

How the data were processed

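RNA bound to IGF2BP2 in mouse BMDMs was sequenced in 2 libraries, and the authors deposited 1 peak list per library. Per the file headers, each peak has a tag count, a maximum height (a coverage signal), coordinates and regions; neither the count nor the signal is normalized to depth or input. Reads were demultiplexed with bcl2fastq and aligned with TopHat2 to GRCm38, per the submitters' processing notes; the sources used here give no versions, peak caller or threshold.

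Deposited starts and summits were found to count from 0: start plus 1 was an annotated exon start for 3604 of 6329 coding peaks in replicate 1 and 5014 of 8672 in replicate 2, against 17 and 30 without it. Coordinates here count from 1. An even tag count was found for 66.9% and 63.7% of peaks, and whether mates were counted separately is not given. Tag counts were the smallest at 3; 32.5% and 24.3% of peaks had 3 to 5 tags. The median peak had 7 and 8 tags.

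Tags were summed per gene over peaks not labelled antisense, with exact 95% Poisson intervals; shares have exact Clopper-Pearson intervals. Both cover counting error only, and those of tags would be too narrow if mates were counted separately. Gene models and sequences were from GENCODE M21, with the longest coding transcript per gene, consensus coding sequences first; 99.76% and 99.7% of gene identifiers matched. Overlap meant 1 base or more on the same strand. No significance test was made, since there is 1 group. Functions were tested on annotation and simulated intervals in Python 3.11.15 (numpy 2.4.6, pandas 2.3.3, scipy 1.17.1).

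The 8 genes and the lists were chosen with earlier results of these data known. All 8 genes are named, plus the 2 genes nearest in summed tags to each of the 3 strongest and up to 4 genes of each list with peaks in both libraries. Genes of lists without a peak, and the Fcgr1, Cd68, Igf2bp2, Airn and Hmga1b values, were named after their values were seen.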

Additional observations from a re-analysis of the deposited data

Results flagged for a closer look

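Peaks labelled antisense to the 8 genes were outside all the counts above, and 3 were found. Opposite the last exon of Cd44, replicate 1 had a peak of 4 tags at chr2:102814224-102814337, whose end coincided with an edge of that exon. Opposite exon 5 of Ccnd1, replicate 1 had a peak of 4 tags at chr7:144930816-144930994 and replicate 2 a peak of 4 tags at chr7:144930959-144931139, and these overlapped by 36 bases. The sense peaks of Ccnd1 in the same exon did not overlap between the libraries. Whether the antisense tags came from the opposite strand was not tested.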

How the results depend on the processing

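Of 24 alternatives on counts and shares, 21 stayed within the limits set for no change. Those limits were wide, so this count does not show that the shares were stable. Within them, the coding share in replicate 1 was 52.3% when any coding base counted and 25.9% by tags, against 38.6% by peaks. The GGAC share in replicate 2 was 63.2% with 50 bases added on both sides, against 47.4%. The alternatives outside the limits are among those below. The number of genes with a peak in both libraries was 7; it was 6 with peaks of at least 6 tags, in the stronger 50% of each list or with exonic peaks only, and the genes with a peak numbered 7 to 8 when 1 library was left out. The number with overlapping peaks was 5; it was 4 when 50% of both peaks had to overlap and 6 with strand ignored. The coding share in replicate 2 was 57.1% when any coding base counted and 17.9% by tags, against 34.7% by peaks. The GGAC share in replicate 1 was 68.4% with 50 bases added on both sides, against 42.1%. The share of all such sense peaks rose as well, to 68.9% against 52.0%. Maximum height in place of tags moved 6 of 16 gene sums, and a minimum of 6 tags moved 1, that of Igf1r in replicate 1. No paired analysis was possible because the inputs sharing replicate numbers with the immunoprecipitated libraries are not analysed here. The lists give no tags outside peaks, so a gene without a peak, such as Hmga2 in replicate 2, has no value there. The precision of each sum is limited by its tag count.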
